A study of Oryctolagus cuniculus with 134 samples.

Results

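The leukocyte beta-2 integrins are cell surface receptors made of a shared beta chain and one of several alpha chains. The 4 genes described here are ITGB2 (ENSOCUG00000011544), which encodes the shared beta chain CD18, and the genes of its alpha partners ITGAM (ENSOCUG00000001587, CD11b), ITGAL (ENSOCUG00000014362, CD11a) and ITGAX (ENSOCUG00000017422, CD11c). They were found by their symbols in the count tables, as 4 of 29587 genes listed, of which 14716 have a symbol. The genes were chosen from measured values, with their levels in all tissues and treatments known, so that their levels, fold changes and calls are a description of the values that chose them, without p-values.

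An integrin reaches the cell surface only as a pair of an alpha and a beta chain, and beta-2 pairs are carried by leukocytes. The pair with ITGAL, LFA-1, binds ICAM proteins on endothelium and serves lymphocytes and myeloid cells in firm adhesion and in contacts between cells. The pair with ITGAM, Mac-1 or complement receptor 3, serves monocytes, macrophages and neutrophils in adhesion, phagocytosis and the binding of fibrinogen and complement fragments. ITGAX is best known as a marker of dendritic cells and is also expressed by macrophages, and in lesions of the artery wall these receptors take part in the entry of blood monocytes.

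RNA was sequenced from the aorta next to the heart and from the 2 left valves (aortic, mitral) and 2 right valves (pulmonary, tricuspid) of 27 male New Zealand White rabbits, which entered the 16-week protocol at 12 weeks of age. Control rabbits (Ctrl) received chow. The CHT group received a diet with 0.3% cholesterol and the Lard group a diet with 5% lard, both with vitamin D2 at 25000 U per day (scaled to body weight) for 15 days. The IR/CHT group received the CHT diet and vitamin D2 and, after 8 weeks of diet, X-rays to the heart. The dose of 24 Gy in 3 fractions of 8 Gy and its aim at the aortic valve and thoracic aorta are stated for rabbits irradiated without the diet. The right-sided valves and the mitral valve are not named as targets. Each tissue had 7 Ctrl, 6 CHT, 7 Lard and 7 IR/CHT libraries, except for 6 Ctrl libraries of the mitral valve. Ctrl rabbits received no vitamin D2, so that diet and vitamin D2 cannot be told apart against Ctrl. Rabbit numbers in the column names form separate series for Ctrl (such as L08273), CHT and Lard (such as L09246) and IR/CHT (such as L28376). What the series stand for is not stated. Series and treatment cannot be told apart against Ctrl or between IR/CHT and CHT. Rabbits with vitamin D2 alone or irradiation alone were not analysed here, and all aorta libraries are in the count table named plate 2, without a statement of which step the plates belong to. Libraries are named by the number on their label, such as L168.

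The libraries held 13564979 to 50577676 read pairs on genes. Levels are CPM, read counts scaled to a fixed total per library, on library sizes scaled by TMM within a tissue, and p-values for other genes come from edgeR's quasi-likelihood test with Benjamini-Hochberg adjustment over all genes of the tissue. A gene is called where its adjusted p was under 0.05 and its fold change over 1.5. With the 4 treatments in 1 model, all 4 integrin genes passed the filter on low counts in the 5 tissues. With only the 2 groups compared, ITGAX did not pass it for Lard against Ctrl in the aorta or against Ctrl in either right-sided valve. Of all libraries, 17 were closest to another tissue than their own, 9 of them aortic valve libraries closest to the mitral valve, by at most 0.027 in r. The tricuspid Ctrl library L168 had a median correlation of 0.848 with its own group, the lowest of all libraries, and of 0.933 with aortic valve libraries, and its nearest library was the aortic valve L166 of the same rabbit (r = 0.973). Scaling was done within tissues, so that levels set side by side across tissues rest on the library totals. In the Lard group, the pulmonary library L271 was closer to tricuspid libraries (r = 0.968) than to its own group (0.958), and the tricuspid library L272 of the same rabbit was closer to pulmonary libraries (0.968) than to its own group (0.948). Integrin levels in tricuspid Ctrl and fold changes against it are therefore also given without L168, and the Lard fold changes of both valves also without L271 or L272. Smooth muscle markers, led by MYH11, summed to 72243 to 100132 CPM in Ctrl aorta and to 123 to 360.3 CPM in the Ctrl mitral valve, while heart muscle markers in the tricuspid Ctrl libraries ranged from 579.9 to 35756 CPM, which shows heart muscle RNA among the valve RNA. In bulk tissue, more leukocytes and more of these RNAs per leukocyte cannot be told apart.

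In Ctrl rabbits, ITGB2 and ITGAM were lowest in the aorta and higher in the valves, ITGAL was low in every tissue, and ITGAX was higher in the left than in most right-sided valve libraries. ITGB2 was lowest in Ctrl aorta at 0.765 to 3.69 CPM (median 2.30), followed by the tricuspid valve at 2.204 to 19.8 CPM (median 4.66) and the pulmonary valve at 3.20 to 9.62 CPM (median 8.26). It reached 6.01 to 16.6 CPM (median 13.3) in the aortic valve and 7.21 to 18.4 CPM (median 13.7) in the mitral valve. Neighbours in this order overlapped, but every aortic and mitral valve library was above every aorta library. Without L168, the tricuspid Ctrl libraries ended at 9.35 CPM of ITGB2, still overlapping the pulmonary valve.

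ITGAM, the alpha chain of Mac-1, was measured in Ctrl aorta at 0.663 to 1.86 CPM (median 1.202). The 4 valves did not separate from each other, with 3.20 to 9.23 CPM (median 5.77) in the aortic, 4.43 to 11.1 CPM (median 6.67) in the mitral, 5.11 to 10.2 CPM (median 8.14) in the pulmonary and 4.04 to 9.53 CPM (median 6.03) in the tricuspid valve, all above the aorta. Without L168 the tricuspid libraries ended at 8.15 CPM of ITGAM. ITGAL, the alpha chain of LFA-1, did not separate any of the 5 tissues in Ctrl. Its ranges were 0.276 to 2.52 CPM (median 1.57) in the aorta, 0.561 to 2.28 CPM (median 1.67) in the aortic, 1.47 to 4.65 CPM (median 2.04) in the mitral, 0.281 to 1.84 CPM (median 0.821) in the pulmonary and 0.669 to 4.56 CPM (median 1.21) in the tricuspid valve, with the same tricuspid range without L168.

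ITGAX was near the detection limit in 3 Ctrl tissues. Ctrl aorta libraries held 0 to 5 read pairs of it (0 to 0.284 CPM, median 0.186), and pulmonary Ctrl libraries 0 to 9 (0 to 0.528 CPM, median 0.101). Tricuspid Ctrl libraries reached 0.494 CPM without L168, which alone held 4.58 CPM. The left valves were higher, at 0.471 to 3.02 CPM (median 0.865) in the aortic and 2.52 to 4.14 CPM (median 2.85) in the mitral valve, and every mitral library was above every pulmonary library.

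**Figure D1:**
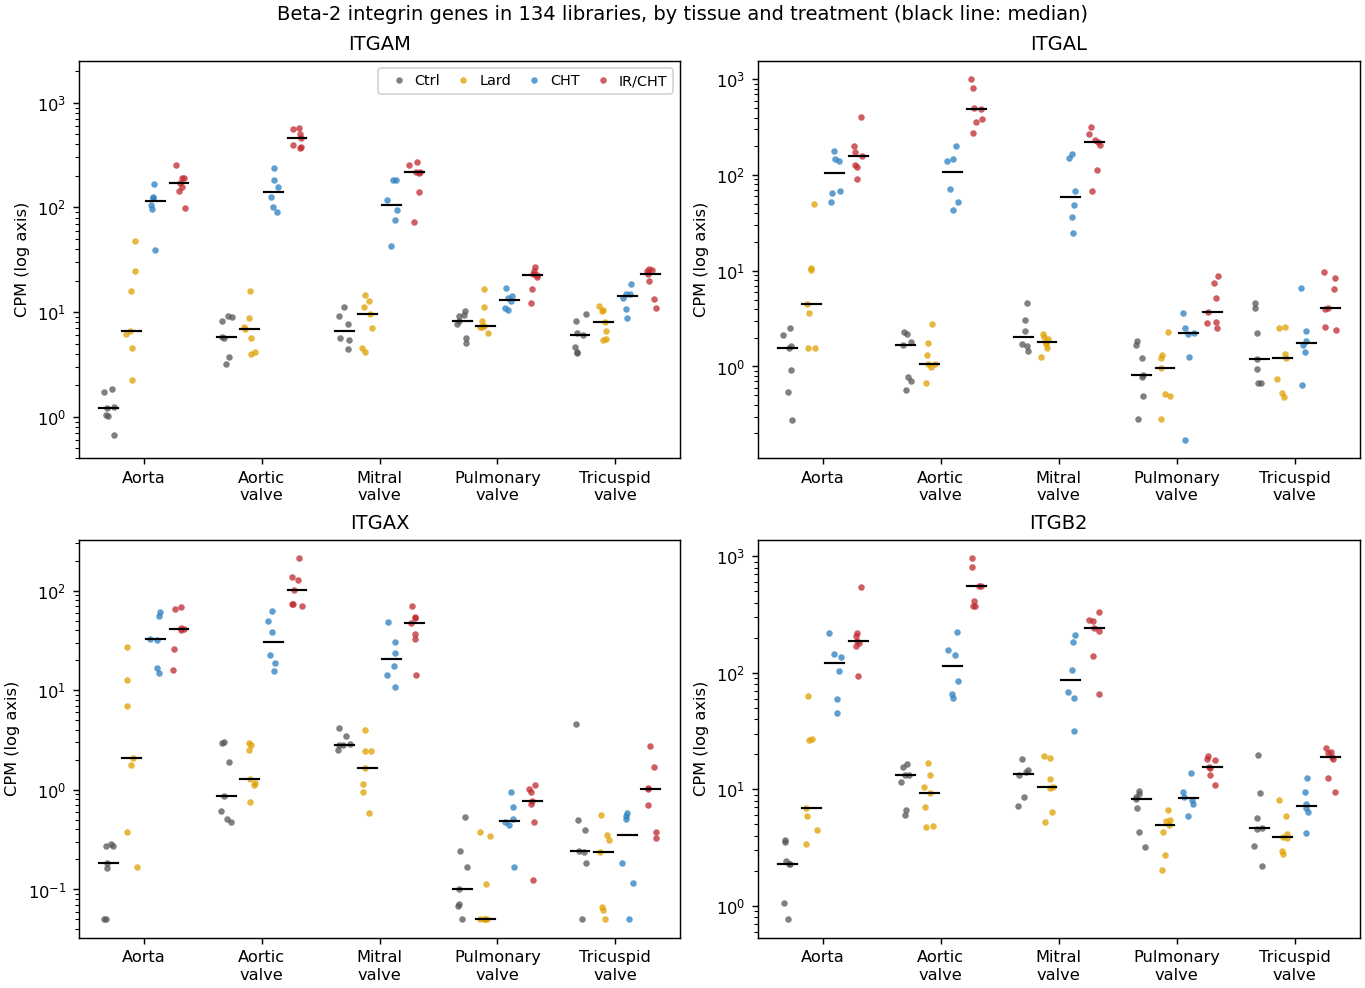
Level of each integrin gene in every library (CPM on a log axis, values under 0.05 drawn at 0.05) by tissue and treatment, 1 point per library with the median as a black line. In aorta, aortic and mitral valve the CHT and IR/CHT libraries sit above the Ctrl libraries without overlap for all 4 genes, and the single high tricuspid Ctrl point of ITGAX at 4.58 CPM is L168.

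The first comparison asks what the cholesterol diet changed in each tissue. In CHT aorta, the 4 genes went from at most 3.69 CPM in Ctrl to at least 14.8 CPM, and no CHT library overlapped a Ctrl library. The shared chain ITGB2 was measured at 44.8 to 221 CPM (median 121), a log2 fold change of 5.69 (SE 0.65). ITGAM lay at 39.3 to 166.1 CPM (median 114), 6.45 (SE 0.57) on the log2 scale. The lowest CHT aorta library was the same, L560, for ITGB2, ITGAM and ITGAL.

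ITGAL in CHT aorta was 52.7 to 179.6 CPM (median 104), with a log2 fold change of 6.32 (SE 0.73). ITGAX stood at 14.8 to 60.8 CPM (median 32.4), and its log2 fold change of 7.65 (SE 0.93) rests on the 0 to 5 read pairs of the Ctrl libraries. All 4 genes were called higher, where 14.2% of all tested genes were called higher, a share given for scale only because the genes were chosen on these values.

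Aortic valve CHT libraries were again above all Ctrl libraries for the 4 genes. ITGB2 lay at 60.3 to 226 CPM (median 114), log2 fold change 3.37 (SE 0.36), and ITGAM at 91.0 to 239.99 CPM (median 142), log2 fold change 4.5502 (SE 0.33). The largest difference was that of ITGAL, from at most 2.28 CPM in Ctrl to 42.7 to 203 CPM (median 107), log2 fold change 6.27 (SE 0.47). ITGAX was found at 15.7 to 62.7 CPM (median 30.5), log2 fold change 4.54 (SE 0.48). L265 was the highest CHT library for each of the 4 genes. The share of all tested genes called higher was 8.42%.

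The mitral valve gave the same order of fold changes for ITGAL and ITGAM, at somewhat lower levels. CHT libraries held 24.6 to 164 CPM (median 58.7) of ITGAL, log2 fold change 5.06 (SE 0.46), and 43.2 to 182.99 CPM (median 105.5) of ITGAM, log2 fold change 4.01 (SE 0.39). For ITGB2 they held 31.9 to 209.9 CPM (median 86.8), log2 fold change 3.12 (SE 0.43), and for ITGAX 10.8 to 48.2 CPM (median 20.6), log2 fold change 2.96 (SE 0.41). L245 was the lowest and L266 the highest CHT library for all 4 genes, and CHT and Ctrl did not overlap. The share of all tested genes called higher was 4.98%. Both left valves had their CHT libraries on plate 1 throughout, and the fold changes called here kept their sign with plate as a covariate and with plate 1 alone.

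In the right-sided valves no integrin gene was called in CHT, where 0.0484% of all genes in the pulmonary and 0.0816% in the tricuspid valve were called higher. ITGAM still separated the pulmonary groups, at 10.4 to 16.95 CPM (median 13.2) in CHT against at most 10.2 CPM in Ctrl (log2 fold change 0.74, SE 0.21). In the tricuspid valve, 5 of 6 CHT libraries were above all Ctrl libraries for ITGAM, at 8.71 to 18.7 CPM (median 14.1), log2 fold change 1.14 (SE 0.25). ITGAM passed both thresholds there without L168, with DESeq2, with DESeq2's size factors, with plate 1 alone and without the CHT library L231.

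The other genes overlapped between CHT and Ctrl in the right-sided valves. ITGB2 was 5.95 to 13.9 CPM (median 8.38) in the pulmonary (log2 fold change 0.32, SE 0.25) and 4.24 to 12.5 CPM (median 7.25) in the tricuspid valve (0.16, SE 0.38). ITGAL was 0.169 to 3.61 CPM (median 2.22) and 0.640 to 6.61 CPM (median 1.78), with log2 fold changes of 0.97 (SE 0.50) and 0.24 (SE 0.54). ITGAX stayed under 1 CPM in every CHT library of both valves, with log2 fold changes of 1.61 (SE 0.69) and -1.37 (SE 0.88). Without L168 the tricuspid log2 fold changes in CHT were 1.29 for ITGAM, 0.67 for ITGB2, 0.51 for ITGAL and 0.36 for ITGAX. The tricuspid CHT library L172 was the highest for ITGAL, and it was closer to mitral valve libraries (r = 0.955) than to its own group (0.952). Without it the values were 1.12 for ITGAM, -0.023 for ITGB2, -0.36 for ITGAL and -1.61 for ITGAX.

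The second comparison asks what the diet combined with cardiac irradiation changed against chow. The highest levels of each of the 4 genes were those of IR/CHT aortic valves, where ITGB2 reached 374 to 962 CPM (median 550.9), log2 fold change 5.60 (SE 0.39). ITGAL there was 274.1 to 1007 CPM (median 496), log2 fold change 8.59 (SE 0.51), the largest log2 fold change of the 4 genes over the comparisons made. ITGAM was 366 to 576.3 CPM (median 465), log2 fold change 6.18 (SE 0.35), with the smallest ratio of highest to lowest library of the 4 genes, and ITGAX 69.9 to 211 CPM (median 101), log2 fold change 6.25 (SE 0.51). The share of all tested genes called higher was 21.1%.

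In IR/CHT aorta, the genes lay at 93.7 to 540.96 CPM (median 186.9) for ITGB2 and 98.98 to 255 CPM (median 170.4) for ITGAM, with log2 fold changes of 6.63 (SE 0.67) and 7.11 (SE 0.58). ITGAL was 91.8 to 408 CPM (median 159.1), log2 fold change 7.07 (SE 0.74) and ITGAX 15.9 to 69.0 CPM (median 41.1), log2 fold change 7.93 (SE 0.93). L566 was the highest library for all 4 genes, with 540.96 CPM of ITGB2 against 221 CPM in the next. That library also had the group's highest macrophage marker sum, 2239 CPM, its lowest smooth muscle marker sum, 10358 CPM, and its highest heart muscle marker sum, 2535 CPM, and their part in the result was not tested. All 4 genes were called, beside 22.2% of all tested genes called higher.

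The IR/CHT mitral valve held 66.2 to 335 CPM (median 243.8) of ITGB2 and 71.9 to 272.6 CPM (median 218) of ITGAM, with log2 fold changes of 4.14 (SE 0.45) and 4.78 (SE 0.40). For ITGAL the levels were 68.6 to 320.4 CPM (median 222), log2 fold change 6.37 (SE 0.48) and for ITGAX 14.2 to 69.8 CPM (median 47.0), log2 fold change 3.82 (SE 0.41). The groups did not overlap for any of the 4, and L175 was the lowest IR/CHT library for each. The share of all tested genes called higher was 11.1%.

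In the right-sided valves the IR/CHT levels were far under those of the aortic valve, but several still separated from Ctrl. In the pulmonary valve, every IR/CHT library was above every Ctrl library for ITGAM (12.3 to 26.8 CPM, median 22.6), ITGB2 (10.8 to 19.4 CPM, median 15.4) and ITGAL (2.51 to 8.81 CPM, median 3.67). Their log2 fold changes were 1.42 (SE 0.21), 1.14 (SE 0.25) and 2.22 (SE 0.49), and these 3 genes were called, in a comparison where 0.581% of all genes were called higher. The count of called integrin genes fell to 1, ITGAM, without the Ctrl library L153 or the IR/CHT library L176, and to 2, ITGAM and ITGB2, with plate 1 alone or without 1 of the Ctrl libraries L167, L200 and L242 or the IR/CHT library L196. With 1 model of the 5 tissues 2 were called. ITGAX, at 0.125 to 1.12 CPM (median 0.766), was not called (2.07, SE 0.66).

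In the tricuspid valve, ITGAM was called in IR/CHT, at 10.9 to 26.0 CPM (median 23.3), log2 fold change 1.74 (SE 0.24), beside 0.109% of all genes called higher. ITGB2 was 9.48 to 22.6 CPM (median 18.8), with a log2 fold change of 1.31 (SE 0.37), and was called only without L168 (log2 fold change 1.83), with DESeq2 or with plate 1 alone (2.29). ITGAL stood at 2.41 to 9.66 CPM (median 4.04), log2 fold change 1.38 (SE 0.52) and ITGAX at 0.329 to 2.76 CPM (median 1.01), log2 fold change 0.38 (SE 0.79). Without L168 the log2 fold changes were 1.89 for ITGAM, 1.65 for ITGAL and 2.11 for ITGAX, while ITGAL was called with plate 1 alone. The IR/CHT library L197, the highest for ITGAL and ITGAX, had a correlation of 0.918 with its own group and 0.919 with mitral valve libraries. Without it the values were 1.75 for ITGAM, 1.26 for ITGB2, 1.17 for ITGAL and -0.015 for ITGAX.

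**Figure D2:**
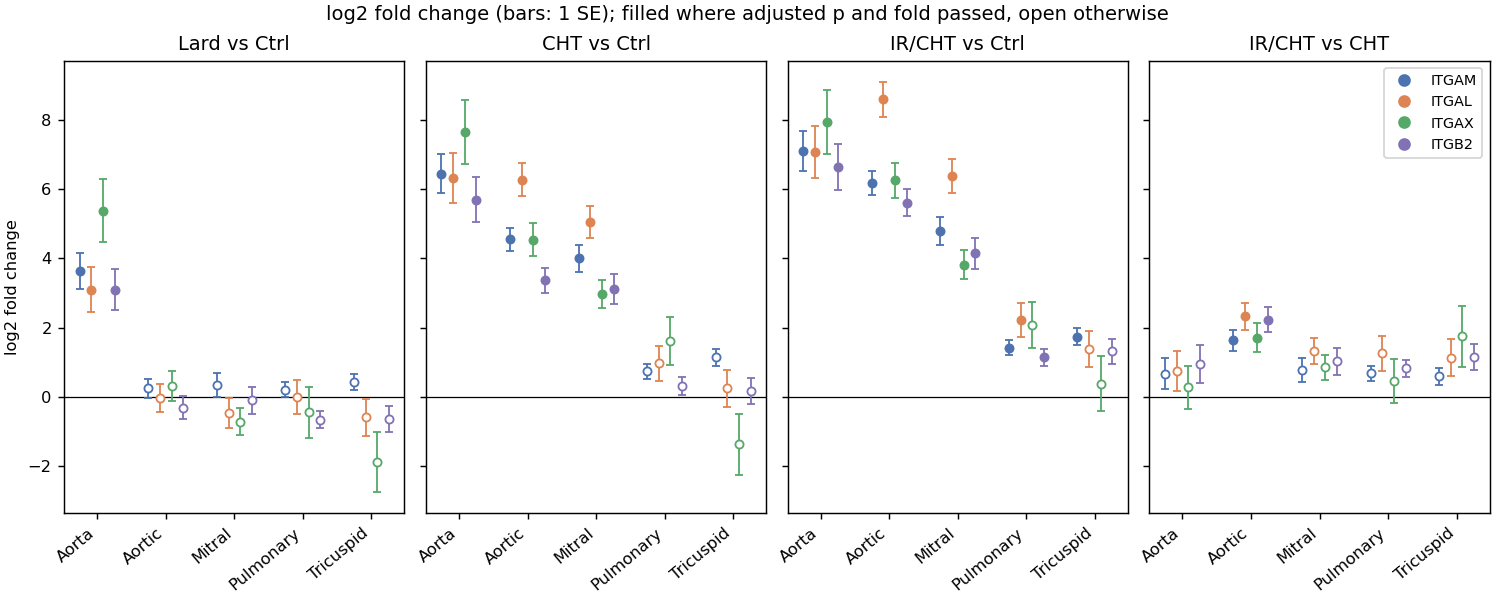
log2 fold change of each integrin gene in the 5 tissues for the 4 comparisons, with bars of 1 SE, and filled points where the gene passed both thresholds. In CHT against Ctrl and IR/CHT against Ctrl the aorta, aortic and mitral valve points are filled and lie between 2.96 and 8.59, and in IR/CHT against CHT the aortic valve alone has filled points.

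The third comparison sets IR/CHT against CHT, which differ by irradiation and by the number series of their rabbits. Among aortic valves, all 7 IR/CHT libraries were above all 6 CHT libraries for each gene. The log2 differences were 2.32 (SE 0.40) for ITGAL, 2.23 (SE 0.36) for ITGB2, 1.71 (SE 0.43) for ITGAX and 1.63 (SE 0.30) for ITGAM. All 4 were called, where 9.9% of all genes were called higher.

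In the same comparison in the other 4 tissues, IR/CHT and CHT overlapped for every integrin gene, and none was called by edgeR. In the aorta the log2 differences ran from 0.27 for ITGAX to 0.95 for ITGB2, the latter 0.57 without L566, and 0.162% of all genes were called higher. In the mitral valve they ran from 0.77 for ITGAM to 1.32 (SE 0.37) for ITGAL, with 0.0522% of all genes called higher. ITGAL, with 5 of 7 IR/CHT mitral libraries above all CHT libraries, was called with DESeq2 and when 1 of the libraries L157, L266 or L175 was left out.

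In the pulmonary valve the differences between IR/CHT and CHT ran from 0.46 for ITGAX to 1.25 for ITGAL, and in the tricuspid valve from 0.60 for ITGAM to 1.75 for ITGAX. The tricuspid difference of ITGAX was 1.36 without L197, and that of ITGAL went from 1.14 to 1.74 without L172. The shares of all genes called higher were 0.0761% and 0%, and DESeq2 called ITGAM and ITGB2 in the pulmonary valve. Whether the response to irradiation differed between tissues was not tested.

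The lard diet was measured against chow in the same tissues. In Lard aorta, ITGAM was 2.24 to 48.2 CPM (median 6.67), and all 7 libraries were above all Ctrl libraries. The spread was wide: the 3 highest libraries, L578, L575 and L562, held 48.2, 24.7 and 15.8 CPM of ITGAM, and the other 4 held 6.67 CPM or less. These 3 libraries were also the highest for ITGB2 at 63.4, 27.2 and 26.3 CPM, of a group range of 3.37 to 63.4 CPM (median 6.90).

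ITGAL in Lard aorta was 1.55 to 49.8 CPM (median 4.552), with 5 of 7 libraries above all Ctrl libraries, and ITGAX 0.167 to 27.3 CPM (median 2.09), with 6 of 7. The log2 fold changes were 3.62 (SE 0.52) for ITGAM, 3.10 (SE 0.59) for ITGB2, 3.10 (SE 0.66) for ITGAL and 5.38 (SE 0.90) for ITGAX, and the 4 genes were called beside 2.57% of all genes called higher. With only Lard and Ctrl libraries in the model, no gene of the genome was called (2012 had an unadjusted p under 0.05), while DESeq2 on the 4 groups called 692 genes and the 4 integrin genes. Without L578 the log2 fold changes were 1.99 for ITGAL, 2.45 for ITGB2, 3.02 for ITGAM and 4.54 for ITGAX.

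The sums of the smooth muscle markers ran opposite to these levels in the highest and lowest Lard aortas. L578, L575 and L562 had the 3 lowest sums, 47333, 48772 and 56575 CPM, and L576, with the lowest ITGAM and ITGB2, had the highest, 89652 CPM. The macrophage markers summed to 438 CPM in L578 and 227 CPM in L576, the ends of the ITGAM range, which gives no order over the libraries between. The neutrophil markers stood out in L562 alone, at 129.6 CPM against at most 17.0 CPM in the others. The part of these cells in the result was not tested.

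In the 4 valves, Lard and Ctrl overlapped for each integrin gene and none was called by edgeR or by DESeq2. The shares of all genes called higher were 0.026% in the aortic, 0% in the mitral, 0% in the pulmonary and 0% in the tricuspid valve. ITGAM in Lard was 3.96 to 15.8 CPM (median 6.87) in the aortic, 4.14 to 14.5 CPM (median 9.70) in the mitral, 6.32 to 16.5 CPM (median 7.35) in the pulmonary and 5.40 to 11.47 CPM (median 7.98) in the tricuspid valve, with log2 fold changes of 0.24, 0.34, 0.21 and 0.42. ITGB2 was 4.73 to 16.9 CPM (median 9.27), 5.29 to 19.5 CPM (median 10.6), 2.05 to 6.64 CPM (median 4.99) and 2.78 to 8.04 CPM (median 3.91), with -0.31, -0.10, -0.66 and -0.64 on the log2 scale.

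ITGAL in Lard was 0.668 to 2.804 CPM (median 1.07) in the aortic, 1.26 to 2.19 CPM (median 1.79) in the mitral, 0.285 to 2.27 CPM (median 0.953) in the pulmonary and 0.477 to 2.58 CPM (median 1.23) in the tricuspid valve. ITGAX was 0.757 to 2.96 CPM (median 1.29), 0.588 to 3.97 CPM (median 1.64), 0 to 0.378 CPM (median 0.0232) and 0 to 0.559 CPM (median 0.239). In the mitral valve 6 of 7 Lard libraries were under the lowest Ctrl library for ITGAX (log2 fold change -0.72, SE 0.39), a difference that did not pass the thresholds.

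Log2 fold changes of ITGAL and ITGAX in Lard were -0.014 and -0.45 in the pulmonary and -0.60 and -1.88 in the tricuspid valve. Without L271 the pulmonary values were -0.36 for ITGAL, -1.07 for ITGAX, 0.23 for ITGAM and -0.71 for ITGB2. In the tricuspid valve they were -0.46, -1.74, 0.50 and -0.56 without L272, and -0.33, -0.16, 0.57 and -0.13 without the Ctrl library L168, for the same genes in the same order.

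Because the tissues came from the same rabbits, the levels could also be set side by side within each animal. In IR/CHT rabbits, the aortic valve was above the aorta in 7 of 7 rabbits for each of the 4 genes, by 1.45 ± 0.53 (SD, n = 7) for ITGAM and 1.43 ± 0.81 (SD, n = 7) for ITGB2 on the log2 CPM scale. It was also above the mitral valve in 7 of 7, with the mitral minus aortic difference at -1.31 ± 0.51 (SD, n = 7) for ITGAM and -1.44 ± 0.65 (SD, n = 7) for ITGAL. In CHT rabbits neither order held in every rabbit. The aortic valve minus aorta difference was 0.49 ± 1.03 (SD, n = 6) for ITGAM, above 0 in 5 rabbits. For ITGB2 it was 0.08 ± 1.19 (SD, n = 6), above 0 in 4. The mitral minus aortic difference was -0.45 ± 0.68 (SD, n = 6) for ITGAM and -0.53 ± 0.81 (SD, n = 6) for ITGAL, above 0 in 2 rabbits for each.

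Between left and right valves the within-rabbit differences were wide in both cholesterol groups. The aortic valve minus pulmonary valve difference of ITGAM was -0.36 ± 0.63 (SD, n = 7) in Ctrl, 3.43 ± 0.56 (SD, n = 6) in CHT and 4.46 ± 0.47 (SD, n = 7) in IR/CHT. For ITGAL it was 0.46 ± 1.14 (SD, n = 7), 5.83 ± 0.87 (SD, n = 6) and 6.83 ± 1.004 (SD, n = 7). ITGAX differed already in Ctrl, by 2.37 ± 1.44 (SD, n = 7), and by 7.11 ± 0.96 (SD, n = 7) in IR/CHT. With 0 to 9 read pairs in pulmonary Ctrl libraries the first value depends on the prior count of 2 added before the log, and was 3.05 with a prior count of 0.5. The mitral minus tricuspid difference of ITGB2 was 1.403 ± 0.25 (SD, n = 6) in Ctrl and 3.57 ± 0.81 (SD, n = 7) in IR/CHT, above 0 in every rabbit. That Ctrl value does not include L168, whose rabbit had no mitral library here.

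**Figure D3:**
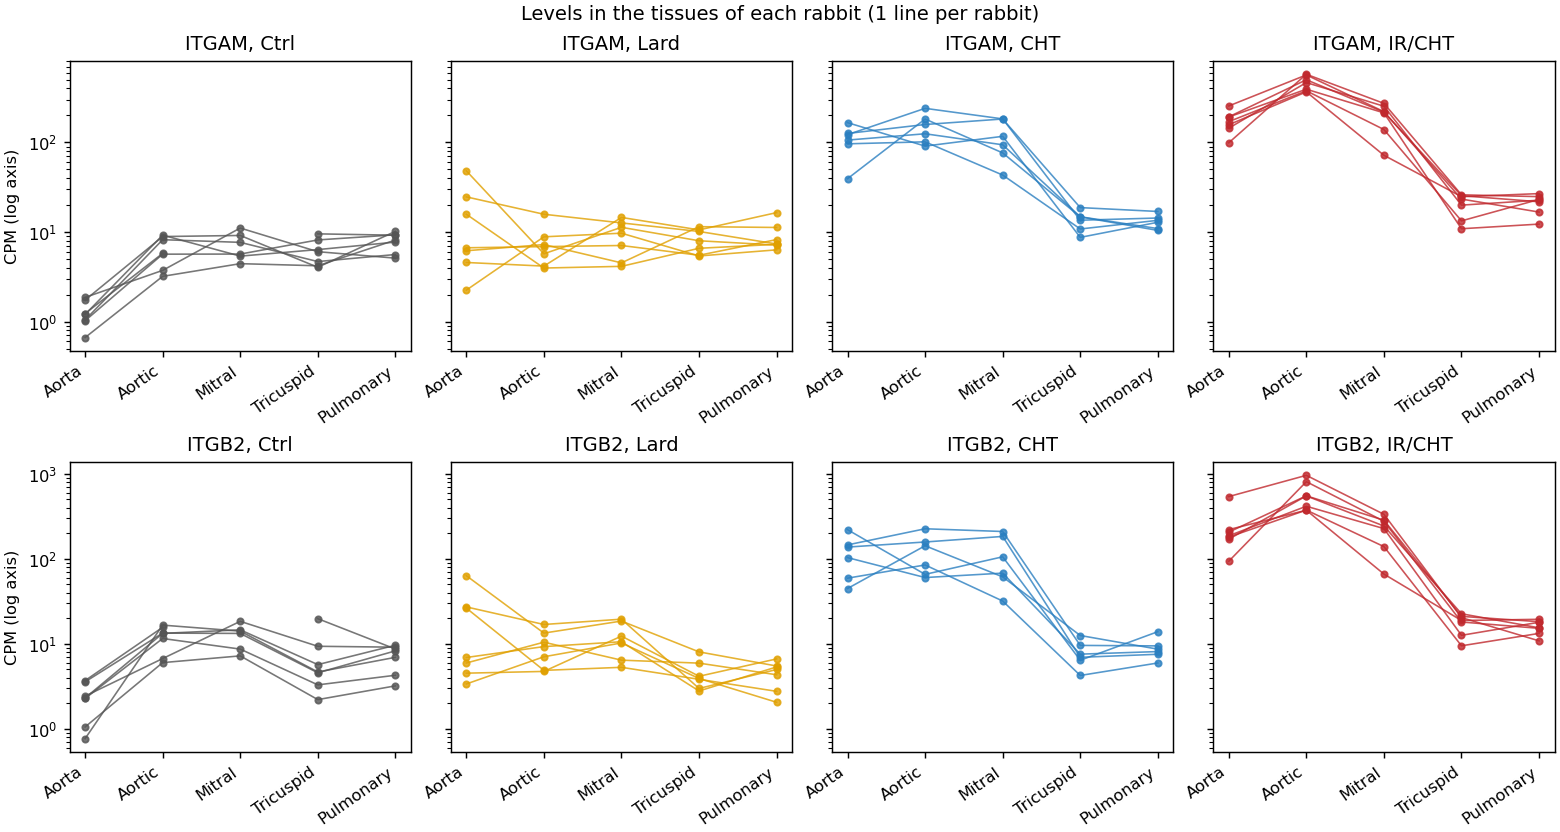
Levels of ITGAM and ITGB2 (CPM on a log axis) in the 5 tissues of each rabbit, 1 line per rabbit and 1 panel per gene and treatment. All 7 IR/CHT lines peak at the aortic valve and drop at the right-sided valves, and the Ctrl lines start lowest at the aorta.

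The 4 genes did not keep a fixed proportion to each other. Since the tables hold no transcript lengths, a ratio of 2 genes has meaning only when compared between groups. The log2 ratio of ITGAL to ITGAM in the aortic valve was -2.23 ± 0.68 (SD) in Ctrl, -2.41 ± 0.80 in Lard, -0.59 ± 0.52 in CHT and 0.13 ± 0.42 in IR/CHT. In the mitral valve the same ratio was -1.58 ± 0.30, -2.22 ± 0.63, -0.67 ± 0.43 and 0.00 ± 0.20. IR/CHT did not overlap Ctrl in either valve. In the aorta the ratio was -0.11 ± 0.85 in Ctrl, -0.74 ± 0.52 in Lard, -0.04 ± 0.45 in CHT and -0.02 ± 0.47 in IR/CHT.

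The ratio of ITGB2 to ITGAM moved the other way in the left valves. It was 0.90 ± 0.27 in Ctrl aortic valves and -0.37 ± 0.37 in CHT, without overlap, and 0.25 ± 0.28 in IR/CHT. Lard also had lower means than Ctrl, 0.35 ± 0.47 in the aortic and 0.37 ± 0.34 in the mitral valve, overlapping Ctrl in both. In mitral valves it was 0.81 ± 0.29 in Ctrl, -0.19 ± 0.26 in CHT and 0.13 ± 0.23 in IR/CHT, and IR/CHT also lay under Ctrl in every library. For ITGAX to ITGAM, the mitral Ctrl ratio of -1.16 ± 0.49 was above the -2.28 ± 0.32 of CHT without overlap. Mitral Lard, at -2.36 ± 0.82, and IR/CHT, at -2.21 ± 0.30, had means as low, so that the difference is not particular to CHT. The aortic valve gave -2.37 ± 0.71 in Ctrl and -2.22 ± 0.44 in CHT.

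**Figure D4:**
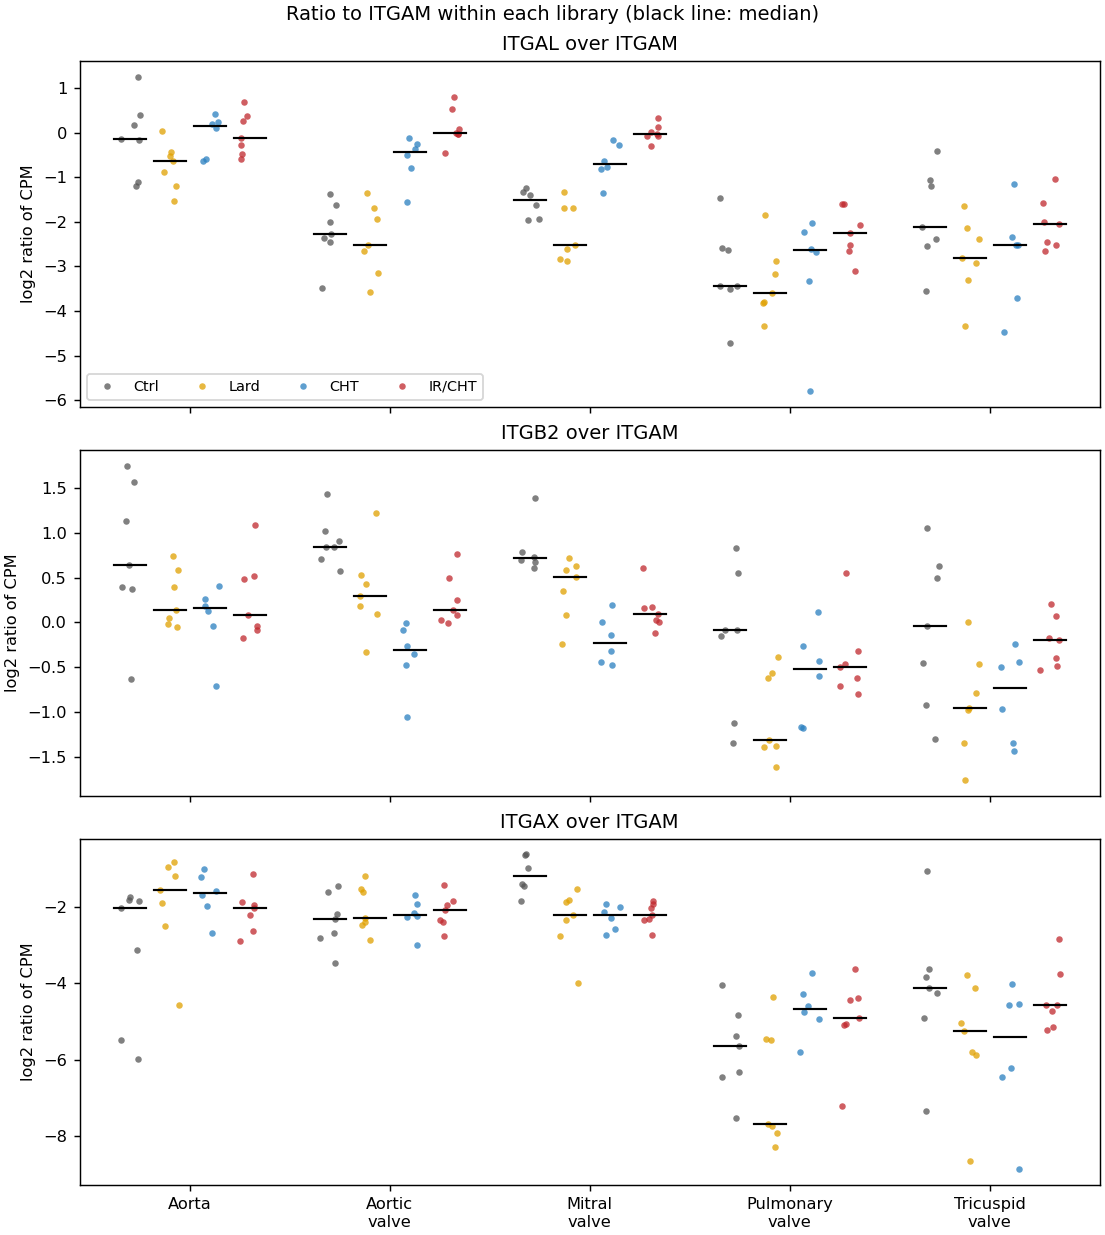
log2 ratio of ITGAL, ITGB2 and ITGAX to ITGAM within each library by tissue and treatment, with the median as a black line. In the aortic and mitral valve ITGAL gains on ITGAM from Ctrl to IR/CHT while ITGB2 loses, and the scattered ITGAX ratios of the aorta in Ctrl and of the right-sided valves rest on few read pairs.

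Markers of the cells that can carry these receptors were summed beside them. The 12 macrophage markers found, led by MRC1 or CD68 with CSF1R, summed to 63.5 to 281 CPM in Ctrl aorta, 408 to 1067 CPM in CHT and 617 to 2239 CPM in IR/CHT. In the aortic valve the sums were 222 to 678 CPM, 879 to 1248 CPM and 2178 to 2702 CPM, and 10 of 12 markers were called higher in IR/CHT, beside 21.1% of all genes. In the pulmonary valve, Ctrl libraries already summed to 636 to 811 CPM, which overlaps CHT aorta, while ITGB2 was at most 9.62 CPM in the former and at least 44.8 CPM in the latter. MRC1 led the sum in the former and CD68 in the latter, so that the sums are carried by different genes.

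T cell markers, 6 found and without CD3 genes, CD4 or CD8A by symbol, summed to 0.281 to 1.57 CPM in Ctrl aortic valves and 21.7 to 52.3 CPM in IR/CHT, with 5 of 5 tested markers called higher, to be read against the same share of all genes. B cell markers summed to 3.43 to 18.3 CPM and 64.1 to 121 CPM there, with PAX5 leading in Ctrl and CD22 in IR/CHT. Of 3 tested, 1 was higher and 1 lower. Dendritic cell markers, 6 of 10 found by symbol, summed to 9.04 to 34.6 CPM and 94.0 to 159.1 CPM. CD207 led that sum in Ctrl and CD83 in IR/CHT, so that different genes carry it. Neutrophil markers summed to 2.45 to 7.15 CPM and 7.96 to 34.3 CPM, without overlap and led by CXCR1 in Ctrl and MMP9 in IR/CHT, with 3 of 7 tested called higher and MMP8 at 0 in both groups. The 3 NK cell markers found summed to at most 0.961 CPM in any library. Heart muscle markers ran the other way, from 158.1 to 12228 CPM in Ctrl aortic valves to 14.2 to 228.2 CPM in IR/CHT, with 5 of 6 called lower, beside 21.7% of all genes. The part of each cell type in the integrin levels was not tested.

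The partner genes of these receptors were described by lists written from general knowledge, when earlier results of these data were known. Of 66 partner genes tested in the aorta, 36 were called higher and 2 lower in CHT, and 45 higher and 8 lower in IR/CHT, where 14.2% and 22.2% of all genes were called higher and 5.18% and 12.2% lower. In the aortic valve 21 were higher and 3 lower in CHT, and 37 higher and 11 lower in IR/CHT (all genes higher 8.42% and 21.1%, lower 3.48% and 21.7%). In the mitral valve the counts were 21 and 1 in CHT and 33 and 7 in IR/CHT (all genes higher 4.98% and 11.1%, lower 0.64% and 6.65%). The shares of partner genes called lower in IR/CHT aorta and aortic valve did not exceed those of all genes.

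Between IR/CHT and CHT, 28 partner genes were higher and 7 lower in the aortic valve, while the aorta had 2 lower and the mitral valve 1 lower, beside 9.85%, 0.433% and 0.137% of all genes called lower, and 9.9% called higher in the aortic valve. Lard against Ctrl gave 14 higher in the aorta, beside 2.57% of all genes (0 with only those 2 groups in the model, 17 with DESeq2) and none in the valves by edgeR or DESeq2, where 1 to 6 had an unadjusted p under 0.05. In the right-sided valves, 2 of 63 were higher in the pulmonary valve in IR/CHT, beside 0.581% of all genes (11 called with DESeq2) and none in the tricuspid valve (10 with an unadjusted p under 0.05, 1 called with DESeq2, and 10 called without L168). CHT called none in either, with 9 and 10 at an unadjusted p under 0.05 and none with DESeq2.

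The ligands of these receptors lie on endothelium, on leukocytes and in the matrix. ICAM1, the inducible endothelial ligand of LFA-1 and Mac-1, was 4.31 to 16.95 CPM in Ctrl and 17.1 to 65.7 CPM in CHT in the aorta. It rose there by a log2 fold change of 1.91 (SE 0.47, adjusted p = 0.00291), and in IR/CHT aorta by 2.90 (SE 0.47, adjusted p = 1.57e-05). Aortic valve ICAM1 was 36.7 to 118 CPM in Ctrl and 24.5 to 113 CPM in CHT, a log2 difference of -0.22 (SE 0.40, adjusted p = 0.727), and in IR/CHT of 0.80 (SE 0.39, adjusted p = 0.0862). The mitral valve values were 0.38 (SE 0.37, adjusted p = 0.691) in CHT and 0.93 (SE 0.36, adjusted p = 0.0558) in IR/CHT, so that none of the 4 valve comparisons passed.

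ICAM2, a constitutive endothelial ligand of LFA-1, rose in aorta, by 1.87 (SE 0.33, adjusted p = 9.48e-05) in CHT and 2.42 (SE 0.32, adjusted p = 1.27e-06) in IR/CHT. In the aortic valve it gave -0.44 (SE 0.30, adjusted p = 0.319) in CHT and rose by 1.14 (SE 0.29, adjusted p = 0.00212) in IR/CHT, and in the mitral valve 0.05 (SE 0.32, adjusted p = 0.97) and 1.004 (SE 0.31, adjusted p = 0.0174), the last a rise. Over the list, 4 of 12 ligands were higher in CHT aorta and 0 of 12 by edgeR in the aortic and mitral valve in CHT, where 2 and 1 had an unadjusted p under 0.05, all with negative fold changes, and DESeq2 called 2 and 0. Of all genes tested, 14.2% were called higher in CHT in the aorta, 8.42% in the aortic and 4.98% in the mitral valve, so that 0 of 12 is near the share of all genes. In IR/CHT aorta 6 of 12 were higher and 1 lower, beside 22.2% of all genes higher and 12.2% lower. In IR/CHT mitral valve 1 was higher and 2 lower, beside 11.1% and 6.65% of all genes. In IR/CHT aortic valve 1 of 12 was higher and 5 lower, beside 21.1% of all genes higher and 21.7% lower. THY1, a surface glycoprotein that binds Mac-1, fell in IR/CHT aortic valve by 1.37 (SE 0.29, adjusted p = 2.81e-04), and JAM3, a junction protein bound by Mac-1, by 1.11 (SE 0.24, adjusted p = 4.38e-04) there and in IR/CHT aorta by 1.15 (SE 0.18, adjusted p = 6.87e-06).

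Of the matrix ligands, VTN (vitronectin) was called in CHT aorta, from 0 to 3 read pairs per Ctrl library to 1 to 82 per CHT library. With so few read pairs in Ctrl, VTN passed the filter on low counts only through other groups, so no p-value is given. FGG, the fibrinogen gamma chain, fell in IR/CHT mitral valve by 1.63 (SE 0.42, adjusted p = 0.00563) and CCN1, a matrix protein bound by Mac-1, by 0.64 (SE 0.19, adjusted p = 0.013).

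Among the activators and adaptors, which switch integrins to their binding state from inside the cell, TLN1 encodes talin 1. It was 1211 to 3111 CPM in Ctrl and 1733 to 2389 CPM in CHT in the aorta, a log2 difference of -0.02 (SE 0.17, adjusted p = 0.938), and -0.10 (SE 0.16, adjusted p = 0.618) in IR/CHT. It rose in IR/CHT in the aortic valve by 1.02 (SE 0.18, adjusted p = 5.06e-05) and in the mitral valve by 0.70 (SE 0.15, adjusted p = 0.00113), and the CHT values there were 0.22 (SE 0.19, adjusted p = 0.417) and 0.36 (SE 0.15, adjusted p = 0.205). FERMT3, the leukocyte kindlin, was not found by symbol.

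FYB1, the adaptor ADAP of T cells and myeloid cells, rose in CHT by 3.68 (SE 0.38, adjusted p = 5.56e-08) in the aorta, 2.15 (SE 0.18, adjusted p = 2.44e-09) in the aortic and 1.92 (SE 0.26, adjusted p = 1.93e-05) in the mitral valve. In IR/CHT it rose by 4.33 (SE 0.39, adjusted p = 2.21e-09), 3.41 (SE 0.18, adjusted p = 1.60e-13) and 2.51 (SE 0.26, adjusted p = 1.31e-07). SKAP2, which links ADAP to integrin activation in myeloid cells, rose in CHT by 2.04 (SE 0.25, adjusted p = 7.38e-07), 2.49 (SE 0.28, adjusted p = 3.07e-07) and 1.61 (SE 0.34, adjusted p = 0.00309) in the same tissues. Of the 11 genes tested, 4, 2 and 2 were higher in CHT and 6, 8 and 5 in IR/CHT in aorta, aortic and mitral valve. The shares of all genes called higher in these tissues were 14.2%, 8.42% and 4.98% in CHT and 22.2%, 21.1% and 11.1% in IR/CHT.

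The signaling genes, kinases and adaptors that act downstream of beta-2 integrins, were higher almost throughout. Of 17 tested, 16 were called higher in the aorta, 14 in the aortic and 15 in the mitral valve in CHT, and 17, 16 and 16 in IR/CHT, and none was lower. All genes tested were called higher at 14.2%, 8.42% and 4.98% in CHT and at 22.2%, 21.1% and 11.1% in IR/CHT. Their median log2 fold change in CHT was 4.06 in the aorta, 2.66 in the aortic and 2.27 in the mitral valve, against -0.04, -0.02 and -0.02 over all genes tested. Between IR/CHT and CHT, 15 of 17 were higher in the aortic valve, beside 9.9% of all genes.

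TYROBP, the adaptor DAP12 of myeloid receptors, was 3.37 to 12.8 CPM in Ctrl and 186.7 to 359 CPM in IR/CHT in the aortic valve. Its log2 fold changes were 4.63 (SE 0.43, adjusted p = 1.06e-08) in CHT aorta, 2.91 (SE 0.32, adjusted p = 2.48e-07) in CHT aortic valve and 4.83 (SE 0.34, adjusted p = 1.61e-11) in IR/CHT aortic valve. In CHT aorta, FCER1G, the signaling chain of Fc receptors, rose by 5.02 (SE 0.39, adjusted p = 1.30e-09) and LYN, a Src family kinase, by 3.03 (SE 0.25, adjusted p = 2.53e-09). PTPN6, the phosphatase SHP-1, rose in CHT aortic valve by 2.74 (SE 0.24, adjusted p = 7.36e-09) and in CHT mitral valve by 2.48 (SE 0.32, adjusted p = 1.09e-05). SYK, the kinase that couples to these adaptors, rose in CHT aortic valve by 2.68 (SE 0.29, adjusted p = 1.44e-07) and VAV1, an exchange factor for Rac, in CHT mitral valve by 2.46 (SE 0.33, adjusted p = 1.57e-05).

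**Figure D5:**
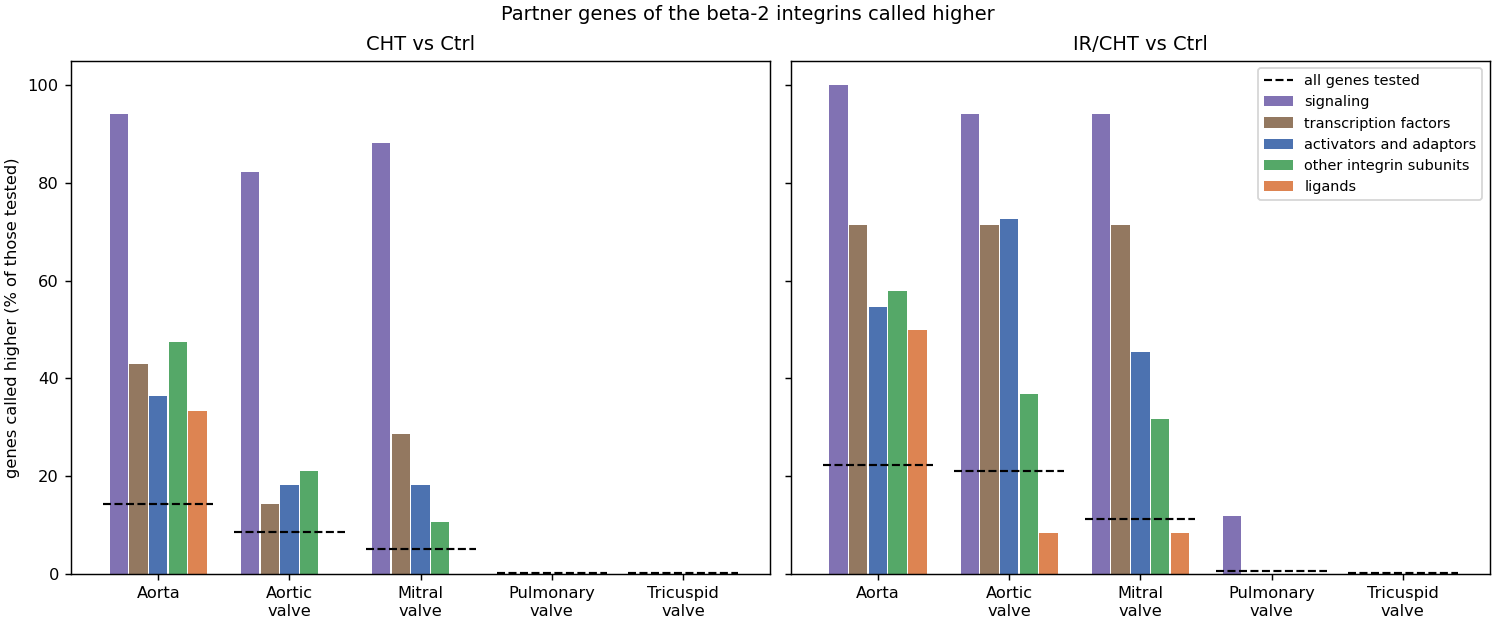
Share of the tested genes of each partner list called higher (bars, percent) in CHT and IR/CHT against Ctrl by tissue, with the share over all genes tested as a dashed line. The signaling list stands highest in aorta, aortic and mitral valve in both comparisons, and most bars in the right-sided valves are at 0.

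Among the other integrin subunits, ITGAD, the alpha chain that also pairs with ITGB2, was at 0 read pairs in all 7 Ctrl aortas and at 30 to 127 in CHT aortas (median 2.61 CPM). The difference is at least 19.5-fold against a floor of 3 read pairs per library, and at least 20.4-fold in IR/CHT. With 0 read pairs in Ctrl aorta, ITGAD passed the filter on low counts only through other groups, so no p-value is given there. In the aortic valve it rose by 4.19 (SE 0.70, adjusted p = 1.06e-04) in CHT and in the mitral valve by 2.88 (SE 0.64, adjusted p = 0.00439). In the annotation of the RefSeq assembly mOryCun1.1, ITGAD, ITGAX and ITGAM follow each other on chromosome 19 with 0 protein-coding genes between them, 32 lie between ITGAM and ITGAL, and ITGB2 is on chromosome 4. Whether reads were shared between these related neighbours was not tested.

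ITGA4, the alpha chain of VLA-4 that binds VCAM1, was 2.53 to 5.24 CPM in Ctrl and 22.1 to 40.8 CPM in CHT in the aortic valve. It rose in 3 tissues, and its log2 fold changes were 2.08 (SE 0.38, adjusted p = 1.58e-04) in the aorta, 2.94 (SE 0.36, adjusted p = 8.72e-07) in the aortic and 1.70 (SE 0.31, adjusted p = 5.00e-04) in the mitral valve in CHT. Other subunits fell. ITGB1, the common beta-1 chain, fell in IR/CHT aorta by 1.07 (SE 0.17, adjusted p = 1.35e-05), and ITGB8, a partner of the alpha-V chain, fell in IR/CHT aortic valve by 1.85 (SE 0.15, adjusted p = 1.03e-10) and mitral valve by 0.91 (SE 0.13, adjusted p = 8.21e-06). Of 19 subunits tested, 9 were higher and 2 lower in CHT aorta, 4 and 3 in CHT aortic valve and 2 and 1 in CHT mitral valve. In IR/CHT the counts were 11 and 6, 7 and 4, and 6 and 3. The shares of all genes called lower in aorta, aortic and mitral valve were 5.18%, 3.48% and 0.64% in CHT and 12.2%, 21.7% and 6.65% in IR/CHT. Those called higher were 14.2%, 8.42% and 4.98% in CHT and 22.2%, 21.1% and 11.1% in IR/CHT. The 4 of 19 subunits lower in IR/CHT aortic valve are a share near that of all genes.

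For the transcription factors of leukocyte genes, SPI1 was not found by symbol. RUNX1, a regulator of blood cell genes, rose in CHT by 4.57 (SE 0.64, adjusted p = 4.16e-06) in the aorta, 0.97 (SE 0.24, adjusted p = 0.00696) in the aortic and 0.81 (SE 0.21, adjusted p = 0.0151) in the mitral valve. IRF8, which directs the monocyte and dendritic cell lines, rose in CHT aorta by 2.78 (SE 0.48, adjusted p = 7.14e-05) and mitral valve by 2.23 (SE 0.46, adjusted p = 0.00218), and in IR/CHT aortic valve by 3.09 (SE 0.50, adjusted p = 1.28e-05). Of 7 factors tested, 3, 1 and 2 were higher in CHT and 5 each in IR/CHT in the 3 tissues, to be read against the same shares of all genes called higher.

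The genes whose pattern over all libraries was most like each integrin gene were found by Pearson correlation of log2 CPM among 11250 genes with a symbol. The libraries share rabbits, tissues and diets, so that the values are a description. For ITGB2 these were MYO1F, a myosin of leukocytes (r = 0.983), PTPN6 (0.970), the macrophage lysosomal protein CD68 (0.970), VAV1 (0.970) and ARHGAP30 (0.970). For ITGAM they were NCKAP1L, a subunit of the actin regulator WAVE in blood cells (0.974), HCLS1 (0.972), TYROBP (0.972), PTPN6 (0.968) and CD83 (0.964).

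ITGAL had another leading gene, GPNMB, a glycoprotein of lipid-laden macrophages (0.974), followed by MYO1F (0.961), ITGB2 (0.960), CD68 (0.958) and TRPM1 (0.957). ITGAX gave MYO1F (0.947), the actin regulator CORO1A (0.941), ITGB2 (0.936), CD300LF (0.936) and CYTH4 (0.936). Among the integrin genes themselves r lay between 0.871 for ITGAM with ITGAX and 0.960 for ITGAL with ITGB2. Over deviations from group means the same pairs had r = 0.624 and 0.780.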

How the data were processed

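Total RNA from 134 samples of rabbit aorta and heart valves was sequenced from 10 ng inputs with a stranded total RNA kit. The authors demultiplexed the reads with bcl2fastq 2.20 and ran the nf-core/rnaseq pipeline on OryCun2.0 with Ensembl gene models. The deposited values are raw counts of read pairs per gene in 2 plate tables, and 0 columns were without a sample. Rabbits were taken from the column names.

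Counts were analysed within each tissue in R 4.3.3 with edgeR 4.0.16 (default low-count filter, TMM, quasi-likelihood test on the 4 treatments, Benjamini-Hochberg adjustment), which was tested on simulated data. Calls required an adjusted p under 0.05 and a fold change over 1.5, as in the study's methods, which used DESeq2. Log2 CPM used a prior count of 2, and log2 ratios 0.5 added to each count. Each SE of a fold change was derived as its absolute log2 value divided by the square root of the test's F statistic. Alternatives were DESeq2 1.42.0, its size factors, no filter, plate as a covariate, plate 1 alone, only the groups compared, 1 model of the 5 tissues and each library left out.

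The integrin genes and the lists of partners and markers were chosen with earlier results of these data known. Named genes were the 4 integrins, the 5 genes most like each, FERMT3, TLN1, ICAM1, ICAM2, SPI1, ITGA4, ITGAD and TYROBP whatever their values, the 2 called genes of each list with the smallest p in CHT and in IR/CHT against Ctrl in aorta, aortic and mitral valve, and the 2 most abundant genes of a marker list. Depth of 13564979 to 50577676 counts per library limits ITGAX, at under 10 read pairs in many Ctrl libraries. Libraries of a group came from separate rabbits.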

Additional observations from a re-analysis of the deposited data

Results flagged for a closer look

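Of 80 groups of 6 or 7 libraries examined for a single library far from the others (Dixon's ratio of CPM), 8 stood out. All 8 were the highest library of their group. The rate of about 1 in 20 by chance holds for independent groups of normally distributed values. Here the same libraries recur across genes and CPM was not log-transformed, so that the 8 cannot be weighed against that rate. L168, the tricuspid Ctrl library nearest to an aortic valve library, was the highest for ITGAX at 4.58 CPM (next 0.494) and for ITGB2 at 19.8 CPM (next 9.35). In Lard aorta L578 was the highest for ITGAL at 49.8 CPM (next 10.7) and for ITGB2 at 63.4 CPM (next 27.2). In IR/CHT aorta L566 was the highest for ITGAL at 408 CPM (next 203) and for ITGB2 at 540.96 CPM (next 221). ITGAL was 6.61 CPM in the tricuspid CHT library L172 (next 2.36), which was closer to mitral valve libraries (r = 0.955) than to its own group (0.952), and ITGAM was 15.8 CPM in the aortic valve Lard library L232 (next 8.84).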

How the results depend on the processing

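Over the 80 fold changes of the integrin genes, 516 of 521 values under other settings and 1065 of 1068 values with 1 library left out lay within 1 SD between libraries of the reported value, and 0 called fold changes changed sign. The exceptions with plate 1 alone were ITGAL in aortic valve IR/CHT against Ctrl (9.32), ITGAX in pulmonary Lard (-3.55), tricuspid Lard (0.057) and tricuspid IR/CHT (2.24), and ITGB2 in tricuspid IR/CHT (2.29). With each library left out in turn, tricuspid ITGAX against Ctrl ranged from -1.61 to 0.36 in CHT, -2.30 to -0.16 in Lard and -0.015 to 2.11 in IR/CHT, the upper ends being without L168. The cause was not tested.

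Counts of called integrin genes changed as follows. With only the 2 groups compared, aorta Lard gave 0 (reported 4); the low-count filter of that fit left ITGAX untested there and against Ctrl in both right-sided valves. The aorta came from 1 plate table and has no plate value. DESeq2 gave 1 in mitral IR/CHT against CHT (reported 0), 2 in pulmonary IR/CHT against CHT (0), 1 in tricuspid CHT (0) and 2 in tricuspid IR/CHT against Ctrl (1). DESeq2's size factors gave 1 in tricuspid CHT, and plate 1 alone gave 1 there and 3 in tricuspid IR/CHT. Leaving out 1 library gave 0 to 1 in mitral IR/CHT against CHT, 1 to 3 in pulmonary IR/CHT against Ctrl, 0 to 1 in tricuspid CHT and 1 to 2 in tricuspid IR/CHT; plate 1 alone gave 2 and 1 model of the 5 tissues gave 2 in pulmonary IR/CHT against Ctrl (reported 3).

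Partner genes called in aorta IR/CHT against CHT (reported 2) were 1 without a filter, 0 with the 2 groups, 8 with DESeq2 and 5 with 1 model of the 5 tissues. In aorta Lard they were 0 with the 2 groups (reported 14). In mitral IR/CHT against CHT they were 0 with the 2 groups and 0 with plate 1 alone (reported 1). Pulmonary IR/CHT against Ctrl (reported 2) gave 1 without a filter, 11 with DESeq2, 1 with 1 model of the 5 tissues and 3 with plate 1 alone, and pulmonary IR/CHT against CHT gave 4 with DESeq2 (reported 0). Tricuspid IR/CHT against Ctrl (reported 0) gave 10 with plate 1 alone and 1 with DESeq2. Partner counts without a library were chosen after seeing the data: they were 10 without L168 in tricuspid IR/CHT and 0 without L566 in aorta IR/CHT against CHT. Of the 5 genes most like ITGAM, ITGAL, ITGAX and ITGB2, Spearman's rho kept 2, 3, 1 and 3, and deviations from tissue and treatment means kept 2, 2, 3 and 2. No paired analysis was possible because the treatments compared within a tissue were given to different rabbits, which share no number; tissues of the same rabbit were compared within rabbits.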
